A study of Homo sapiens with 8 samples.

Results

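The 42 genes described here encode the machinery that brings proteins into mitochondria, folds them there and degrades them. They were chosen by name: subunits of the outer and inner membrane translocases, matrix chaperones, proteases and inner membrane assembly factors. All 42 were found among the 78932 genes of the deposited count table by Ensembl gene ID, and all 42 were among the 24289 genes with enough counts to be tested. The study profiled polysomes in human acute myeloid leukaemia cells with OGFOD1 overexpression (OE) or control. OGFOD1 hydroxylates a proline of RPS23, a protein of the small ribosomal subunit. Control and OE cells each gave a light and a heavy pool, and each of these 4 groups had 1 library labelled Molm13 (a leukaemia line with a KMT2A rearrangement) and 1 labelled U937 (a monocytic line). OE cells carried OGFOD1 on a lentiviral vector. Library names mark the controls as Scr, and the labels say nothing more of a control vector. All cells were treated with cycloheximide, which holds ribosomes on mRNA. The light pool of each sucrose gradient combined free ribonucleoproteins, single ribosomes and disomes, and the heavy pool held RNA with at least 3 ribosomes. Levels are in CPM (TMM-corrected counts, brought to the same total in every library), so each is a share of the RNA sequenced in its pool, and fewer cells and less RNA per cell cannot be told apart.

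Several facts about the libraries come before the results. Total counts ranged from 25741930 to 89373133. OGFOD1 itself went against its label. It stood at 33 and 49.8 CPM in the control light pools (Molm13, then U937) and at 16.7 and 10.1 in the light pools labelled OE. In the heavy pools it stood at 44.4 and 60.2 CPM for control and 25.3 and 12.4 for OE, which gave -1.60 on the log2 scale over both pools (SE 0.30, adjusted p = 0.0178). Every direction given below is therefore that of the label OE. The line labels separated the libraries little: of 9299 genes above a mean of 10 CPM, 7 differed at least 2-fold the same way in all 4 groups and 0 differed 4-fold. FLT3, HOXA9 and MEIS1 overlapped between the labels. Myeloid genes were present in every library (SPI1 44.4 to 203 CPM, LYZ 175 to 557), and EPCAM and CDH5 were at or near 0. Not every marker of other cell types was absent. PECAM1 (endothelial) was at 41.1 to 124 CPM, KRT18 (epithelial) at 1.43 to 16.8 and CD3D (T cell) at 1.4 to 120. The Molm13 control light library stood apart: across genes it correlated at 0.914 to 0.936 with the heavy libraries and at 0.814 to 0.852 with the other light ones. Results are given with and without it.

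Nearly all mitochondrial proteins are made on cytosolic ribosomes and imported afterwards. Most precursors pass the outer membrane through the TOM complex. Those with a cleavable presequence are then drawn through the TIM23 translocase by an ATP-driven motor built on the chaperone HSPA9, while carrier proteins follow the small TIM chaperones to the TIM22 translocase. In the matrix the processing peptidase removes the presequence, HSPD1 and HSPE1 (HSP60 and HSP10) fold the product, and LONP1 and CLPP with CLPX degrade what fails. Leukaemia cells with active mitochondria are known to depend on parts of this system, CLPP among them.

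More of these mRNAs were higher in the heavy pools than in the light pools. Of the 42 genes, 20 (47.6%) were higher in the heavy pools at an adjusted p under 0.05, against 15.8% of all genes tested. Another 5 (11.9%) were lower, against 12.8% of all genes. The median log2 fold change was 0.57 over the 42 genes and -0.04 over all genes. HSPE1, GRPEL1 and LONP1 had the largest differences, and TOMM5 the lowest value. Without the Molm13 control light library 21 genes were higher and 7 lower, against 20.2% and 15.6% of all genes, with a median of 0.63. Upper-quartile scaling moved the median of all genes from -0.04 to -0.22. Then 17 of the 42 genes were higher and 6 lower, against 2846 and 4319 of the 24289 genes tested. Over all genes tested the same scaling turned a share of 55.3% higher among the called genes into 39.7%.

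**Figure D1:**
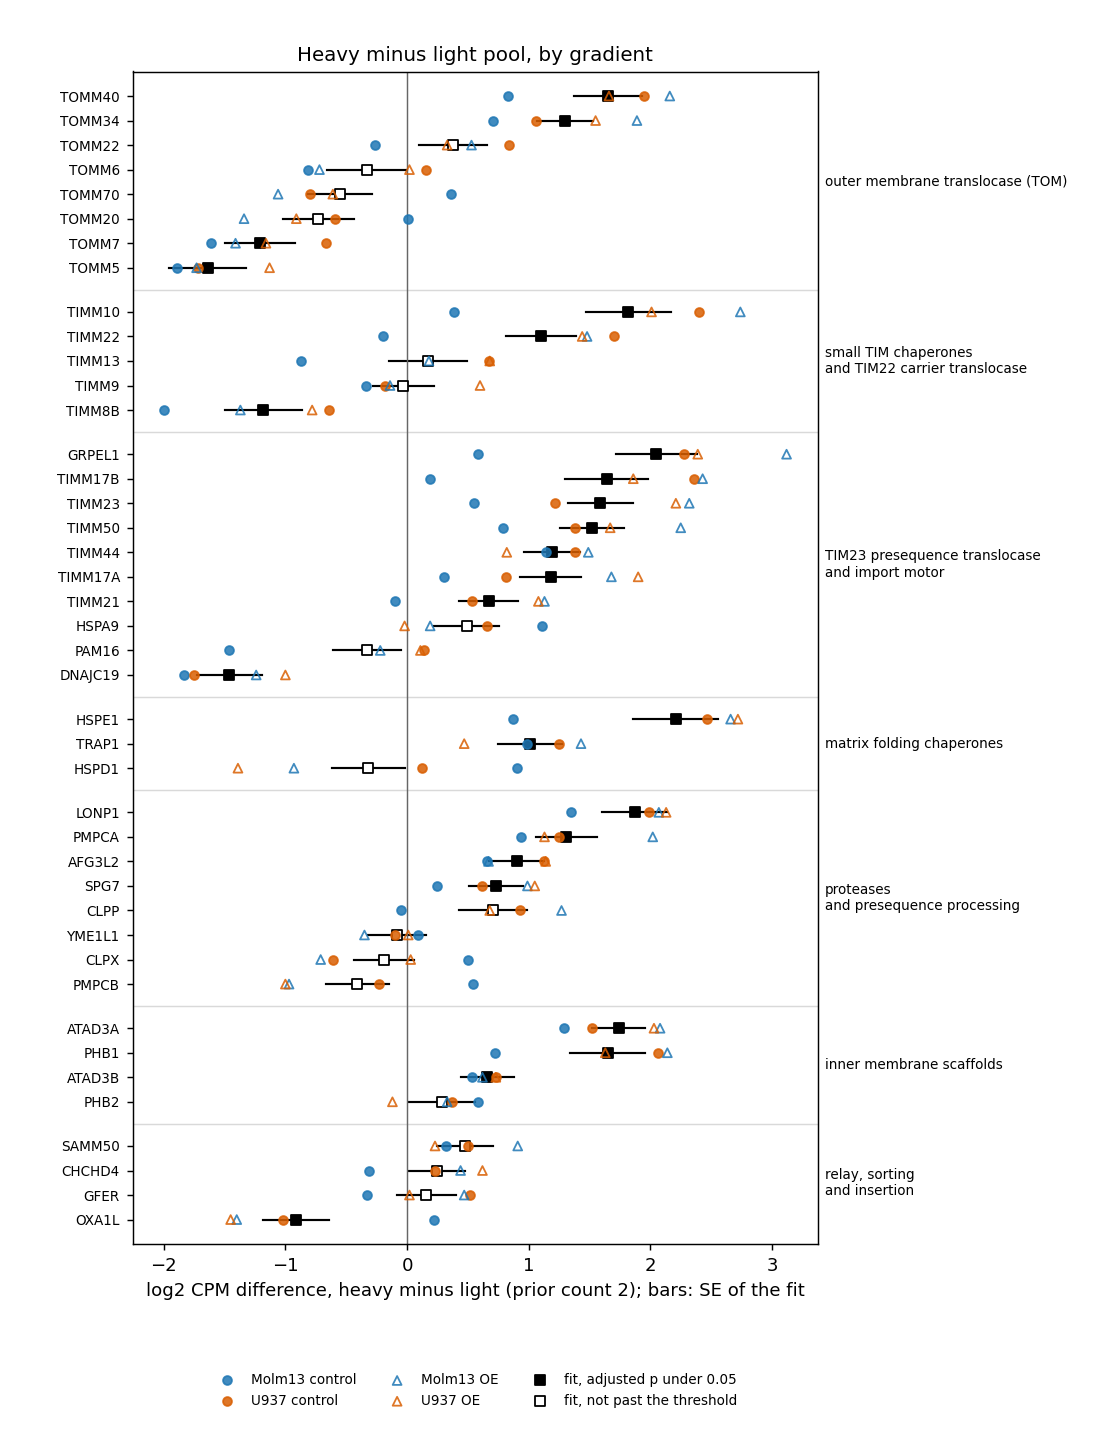
Heavy minus light difference of the 42 genes, grouped by role. The horizontal axis is the log2 CPM difference; circles and triangles are the gradients labelled control and OE (blue Molm13, orange U937), and squares with bars are the fitted value and its SE, filled where the adjusted p was under 0.05. Most TIM23 genes sit to the right of 0 in all gradients, while TOMM5, TOMM7, TIMM8B and DNAJC19 sit to the left in all 4.

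The outer membrane translocase split between its members. TOMM40, the import pore, was at 112 and 65.2 CPM in the control light pools, 198 and 252 in the control heavy pools, 40.2 and 40.4 in the OE light pools, and 180 and 127 in the OE heavy pools (Molm13, then U937, here and below). All 4 heavy libraries lay above all 4 light ones, with a fold change of 1.65 on the log2 scale (SE 0.28, adjusted p = 0.00165). TOMM34, a cytosolic co-chaperone of precursors, was also higher in the heavy pools (1.30, SE 0.23, adjusted p = 0.00192). The small subunits TOMM5 and TOMM7, which steady and tune the pore, were lower in the heavy pools. TOMM5 was at 541 and 1024 CPM in the control light pools and 146 and 311 in the control heavy pools, with 425 and 343 against 128 and 156 under the label OE. Its heavy libraries all lay below its light ones, at -1.64 on the log2 scale (SE 0.32, adjusted p = 0.00324). TOMM7 gave -1.21 (SE 0.29, adjusted p = 0.0079). The receptors TOMM20, TOMM22 and TOMM70 had values of -0.73, 0.38 and -0.55 that did not pass the threshold. Without the Molm13 control light library TOMM20 (-0.87, adjusted p = 0.00755) and TOMM70 (-0.75, adjusted p = 0.0157) passed. TOMM6 gave -0.33 (adjusted p = 0.475), and all of its exon bases are shared with other annotated genes, so its counts are uncertain.

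Of the 10 TIM23 genes, 7 were higher in the heavy pools and 1 lower, with a median of 1.19. TIMM23 itself, the channel, rose from 147 and 127 CPM in the control light pools to 215 and 295 in the control heavy pools. Under the label OE it stood at 41 and 34.6 in the light pools and at 205 and 160 in the heavy pools, so its heavy and light libraries did not overlap (log2 fold change 1.59, SE 0.27, adjusted p = 0.00169). TIMM50, the presequence receptor of the inner membrane, gave 1.52 (SE 0.26), and TIMM44, which tethers the motor, gave 1.19 (SE 0.23). GRPEL1, the nucleotide exchange factor of HSPA9, was at 161 and 48.6 CPM in the control light pools, 241 and 236 in the control heavy, 36.5 and 33.7 in the OE light, and 318 and 177 in the OE heavy pools. The pool difference was 2.05 on the log2 scale (SE 0.33, adjusted p = 0.00124). The Molm13 control light value of GRPEL1 lay far above the other light values, and without that library the fold change was 2.48. DNAJC19, a J-domain partner of the same motor, went the other way: 164 and 291 CPM in the control light pools against 46.3 and 86.1 in the control heavy pools, and 137 and 135 against 57.8 and 67.6 under the label OE (-1.46, SE 0.27, adjusted p = 0.00251). HSPA9, the motor's ATPase, gave 0.49 (SE 0.27, adjusted p = 0.194).

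Among the small TIM chaperones, which shield hydrophobic precursors between the membranes, TIMM10 was higher in the heavy pools (1.82, SE 0.35) and TIMM8B lower (-1.18, SE 0.32). TIMM9, which forms a hexamer with TIMM10, gave -0.03 (SE 0.25). TIMM22, the carrier translocase, was higher (1.10, SE 0.29). Of the exon bases of TIMM8B and TIMM9, 32.3% and 30.5% are shared with other genes, and the library kit does not mark the strand.

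Proteases and processing enzymes held 4 higher genes of 8 and no lower one. LONP1, the main soluble protease of the matrix, was at 66.6 and 29.6 CPM in the control light pools and 170 and 118 in the control heavy pools. With the label OE it was at 22.4 and 20.5 in the light and 94.2 and 89.5 in the heavy pools. The groups did not overlap, at a log2 difference of 1.87 (SE 0.27, adjusted p = 0.000824). AFG3L2 and SPG7, which form the m-AAA protease of the inner membrane, gave 0.90 and 0.73, both past the threshold. PMPCA, one subunit of the presequence peptidase, gave 1.31 (SE 0.25), while its catalytic partner PMPCB gave -0.41 (SE 0.26, adjusted p = 0.251). CLPP, the protease barrel that works with the unfoldase CLPX, gave 0.71 (adjusted p = 0.0707), and CLPX gave -0.19. Leaving out the Molm13 control light library brought CLPP past the threshold (0.91, adjusted p = 0.00683). YME1L1, the i-AAA protease, gave -0.08.

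The inner membrane scaffolds included 3 higher genes of 4. ATAD3A, an AAA ATPase that spans from the inner membrane toward the outer one, was at 20.7 and 19.9 CPM in the control light pools, 50.7 and 57.3 in the control heavy, 5.8 and 5.58 in the OE light, and 24.6 and 22.8 in the OE heavy pools. It had the smallest p of the 42 genes in this comparison (1.74, SE 0.22, adjusted p = 0.000626). ATAD3B, its close paralog, gave 0.66 (SE 0.22), and reads could be split between the pair. The third paralog, ATAD3C, stayed between 0.054 and 0.296 CPM. PHB1 gave 1.65 (SE 0.31) and PHB2, with which it forms the prohibitin ring, 0.29 (SE 0.27). Of the exon bases of PHB1 and PHB2, 25.1% and 11.8% are shared with other genes. Of the relay, sorting and insertion factors, OXA1L, the inner membrane insertase, was lower in the heavy pools (-0.91, SE 0.27, adjusted p = 0.0229). CHCHD4 and GFER, the disulfide relay, and SAMM50, the sorter of outer membrane barrels, gave 0.25, 0.16 and 0.48 with none past the threshold.

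In 12 of the 42 genes all heavy libraries lay above all light ones (28.6%, against 9.12% of genes tested), and in 3, TOMM5, TOMM7 and DNAJC19, all lay below (7.14%, against 9.81%). By gradient the median heavy minus light difference of the 42 genes was 0.34 for Molm13 control, 0.65 for Molm13 OE, 0.67 for U937 control and 0.65 for U937 OE. The lowest of these came from the gradient with the library that stood apart.

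The genes called lower in the heavy pools mostly had short reading frames, though negative values that missed the threshold were also found in longer ones. The bounds used here were set after the values were seen. Among 10 genes of up to 130 codons, 4 were lower in the heavy pools and 2, HSPE1 and TIMM10, were higher (median -0.33). Over all genes of that length 24.4% were higher and 13.1% lower. Of 13 genes with 130 to 300 codons, 7 were higher and 0 lower, against 29.6% and 11.3% of all such genes. Of 19 longer genes 11 were higher and 1 lower, against 18.7% and 10.2%.

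The annotated transcript starts are shown next because TOMM7 and OXA1L, both lower in the heavy pools, share a first base C and a pyrimidine run, the feature by which terminal oligopyrimidine mRNAs are recognised. RefSeq windows (GRCh38.p14) were matched for 36 of the 42 genes, and 6 of these (16.7%) had a start of C followed by at least 4 more pyrimidines, against 7.05% of 12057 tested genes with a window. The first 20 bases of the transcript are printed 5′ to 3′, with the run of pyrimidines from the first base in capitals. The last 3 lines give genes with large values in the heavy pools for contrast, and each lacks such a run. DNAJC19, also lower in the heavy pools, lacks it at every annotated start. No window was matched for TOMM5 and TIMM8B, the other genes called lower there.
TOMM7 (chr7:22822830-22822849, minus strand): CCTTTCCCTTTCggattccc
TOMM70 (chr3:100401070-100401089, minus strand): CTTTTCTgtcgtccgctctc
OXA1L (chr14:22766688-22766707, plus strand): CTCTTCCgggcaaaatggcg
TOMM20 (chr1:235128818-235128837, minus strand): CTTTCTgtgttcctggcccg
PHB2 (chr12:6970645-6970664, minus strand): CTTTCgccagccttacgggc
HSPD1 (chr2:197499821-197499840, minus strand): CCCTCactcgccgccgacga
HSPE1 (chr2:197500379-197500398, plus strand): gcgagtctctttgcggcgct
LONP1 (chr19:5720127-5720146, minus strand): agtatggccgggctatggcg
ATAD3A (chr1:1512530-1512549, plus strand): gggagccctggcccttgccg

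The run was longest in TOMM7, at 12 bases. HSPD1 and PHB2 each have another annotated start without it, and LONP1 has another start that also lacks it. The 6 genes had a median heavy minus light log2 fold change of -0.64, with 5 negative, and the other 30 matched genes had a median of 0.96, with 24 positive. Over all genes with a window the medians were -0.16 for such starts (850 genes) and 0.11 for the others (11207 genes). Without the Molm13 control light library the 6 and the 30 genes had medians of -0.81 and 1.09. The classes were formed after values were seen, so these are descriptions with no test, and the start used in these cells was not measured.

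**Figure D2:**
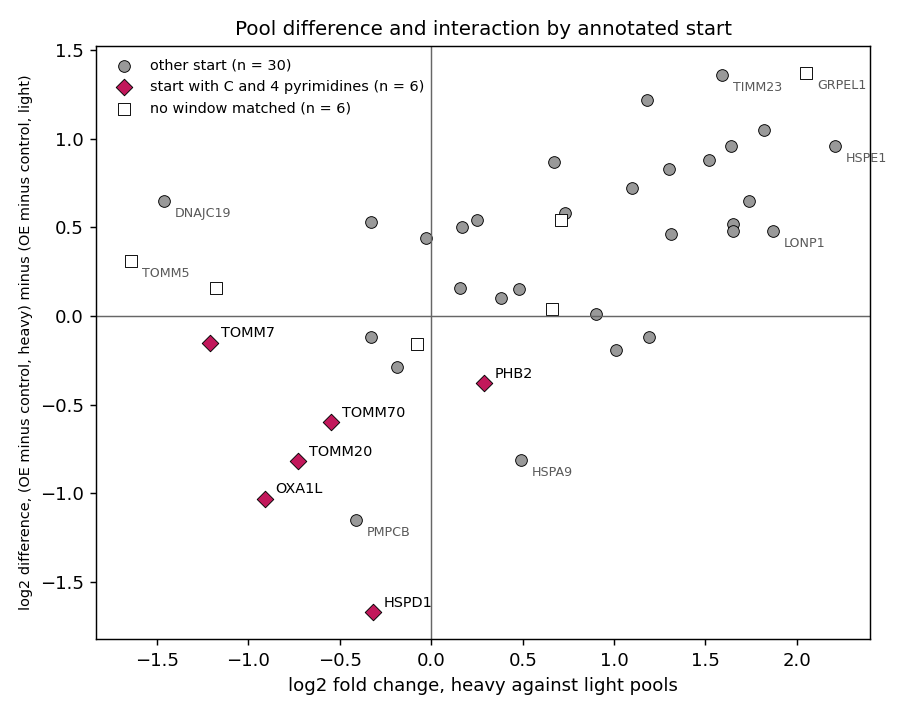
Each point is 1 of the 42 genes. The horizontal axis is the log2 fold change of heavy against light pools, and the vertical axis is the log2 difference between the OE minus control contrast in the heavy pools and that in the light pools. Diamonds mark the 6 genes whose annotated start is C with at least 4 more pyrimidines; all 6 lie below 0 on the vertical axis and 5 of 6 left of 0 on the horizontal axis.

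HSPD1 and HSPE1 gave different values although their genes lie back to back. HSP60 is a barrel and HSP10 its lid, and the genes start 105 bases apart in opposite directions. The 104 bases between the outer annotated starts (chr2:197500275-197500378, plus strand, GRCh38.p14) are shown because both genes share them. HSPD1 is read to the left and HSPE1 to the right, and an E-box (CACGTG, on both strands) is in capitals.
HSPD1-HSPE1: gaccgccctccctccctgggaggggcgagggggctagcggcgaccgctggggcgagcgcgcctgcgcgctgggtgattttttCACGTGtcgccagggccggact
An E-box was found in a promoter window of 6 of the 36 matched genes (16.7%), against 12.1% of 12057 tested genes with a window. HSPD1 and HSPE1 are 2 of the 6 and hold the same site printed above. A window runs from 250 bases before to 50 after the start.

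HSPE1 was at 381 and 244 CPM in the control light pools, 697 and 1353 in the control heavy pools, 92 and 74.1 in the OE light pools, and 582 and 490 in the OE heavy pools. Every heavy library lay above every light one (log2 fold change 2.21, SE 0.35, adjusted p = 0.00112). HSPD1 was at 334 and 519 CPM in the control light pools and 624 and 564 in the control heavy pools, and at 602 and 854 in the OE light pools and 316 and 326 in the OE heavy pools. Its heavy pools were above its light pools under control and below them under OE, and the mean pool difference was -0.32 (SE 0.30, adjusted p = 0.446). Per length of transcript, the ratio of HSPE1 to HSPD1 was 2.95 and 1.21 in the control light pools, 0.395 and 0.224 in the OE light pools, 2.89 and 6.2 in the control heavy pools and 4.76 and 3.88 in the OE heavy pools. In the light pools labelled OE the lid's mRNA was thus below the barrel's per length, and in the other 6 libraries above it. The difference between the genes was not tested. HSPD1 and HSPE1 also share 281 annotated exon bases on opposite strands, and the library kit does not mark the strand. HSPE1 has 26 named pseudogenes and HSPD1 has 18. HSPE1-MOB4, a read-through gene that shares exons with HSPE1, had 41.1 to 694 CPM. Part of the HSPD1 and HSPE1 counts may therefore be shared.

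**Figure D3:**
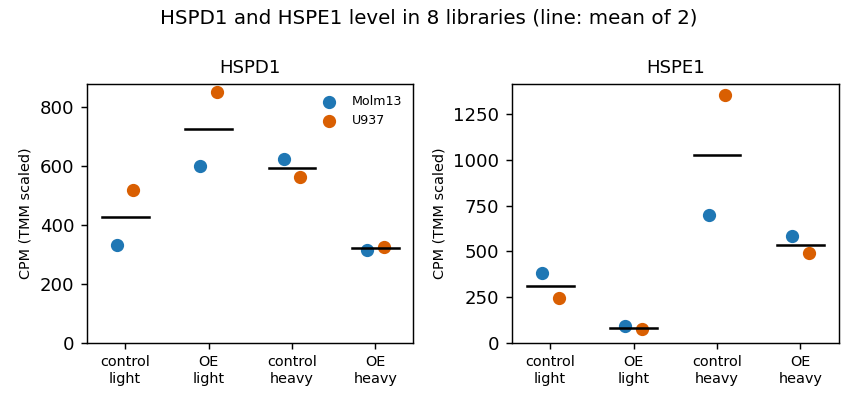
CPM of HSPD1 and HSPE1 (vertical axes, starting at 0) in the 4 groups. Points are libraries labelled Molm13 (blue) and U937 (orange), and the lines are means of 2. In the light pools the label OE goes with higher HSPD1 and lower HSPE1, and in the heavy pools both OE libraries lie below both control libraries for either gene.

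Under the label OE, most of the 42 mRNAs had lower values over both pools. The fold change was negative for 39 genes, and 5 were lower at an adjusted p under 0.05 (11.9%, against 2.36% of all genes tested). No gene of the 42 was higher, against 2.01% of all genes. The median was -0.60, against -0.05 over all genes. Upper-quartile scaling gave 36 negative values and 5 lower genes, against 481 lower of the 24289 genes tested. Over all genes it raised the share of higher genes among those called from 45.9% to 61%. The 5 genes were ATAD3A, TIMM23, TOMM34, HSPE1 and TIMM50. In 22 of the 42 genes (52.4%, against 14.4% of all genes) the OE library was the lower one in all 4 pairs of a line label and pool, and in none was it the higher one in all 4, against 11% of all genes.

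ATAD3A had the smallest p, at -1.51 (SE 0.22, adjusted p = 0.0116), with lower values in 4 of 4 pairs. Its OE light libraries (5.8 and 5.58 CPM) lay below its control light libraries (20.7 and 19.9) by more than the spread between them. HSPE1 gave -1.43 (SE 0.33, adjusted p = 0.035), TIMM23 -1.18 (SE 0.27, adjusted p = 0.0328) and TIMM50 -1.07 (SE 0.26, adjusted p = 0.0374). TOMM34 was at 51.2 and 41.3 CPM in the control light pools against 17.2 and 17.9 in the OE light pools, and at 83.9 and 86.3 against 64 and 52.4 in the heavy pools (-0.97, SE 0.23, adjusted p = 0.0346). HSPA9, LONP1, TIMM10 and TOMM40 had values of -0.90, -0.85, -1.08 and -0.84 with adjusted p of 0.0742, 0.0821, 0.0851 and 0.0925. Without the Molm13 control light library TIMM10 gave -0.57, and HSPA9 passed (-0.94, adjusted p = 0.0104). At the other end TOMM20 gave 0.35, PMPCB 0.00 and OXA1L -0.00.

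These calls rest on pools of the same gradient counted as independent. When the light and heavy counts of a gradient were added together, 1 residual degree of freedom was left. Then 0 of the 42 genes passed, as did 0% of the 25667 genes tested. Of the 42, 21 had an unadjusted p under 0.05 and the smallest adjusted p was 0.102. With no term for the line label only ATAD3A passed, and 0.478% of all genes were called. Leaving out single libraries gave 0 to 19 called genes. There were 19 when U937 control light was omitted (9.15% of all genes were called), 8 for Molm13 control light (13.4%), 4 for Molm13 control heavy (2.22%) and 0 for U937 OE heavy (0.0679%). Omitting any one of the other 4 libraries left ATAD3A alone, with 1.11% to 3.73% of all genes called.

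**Figure D4:**
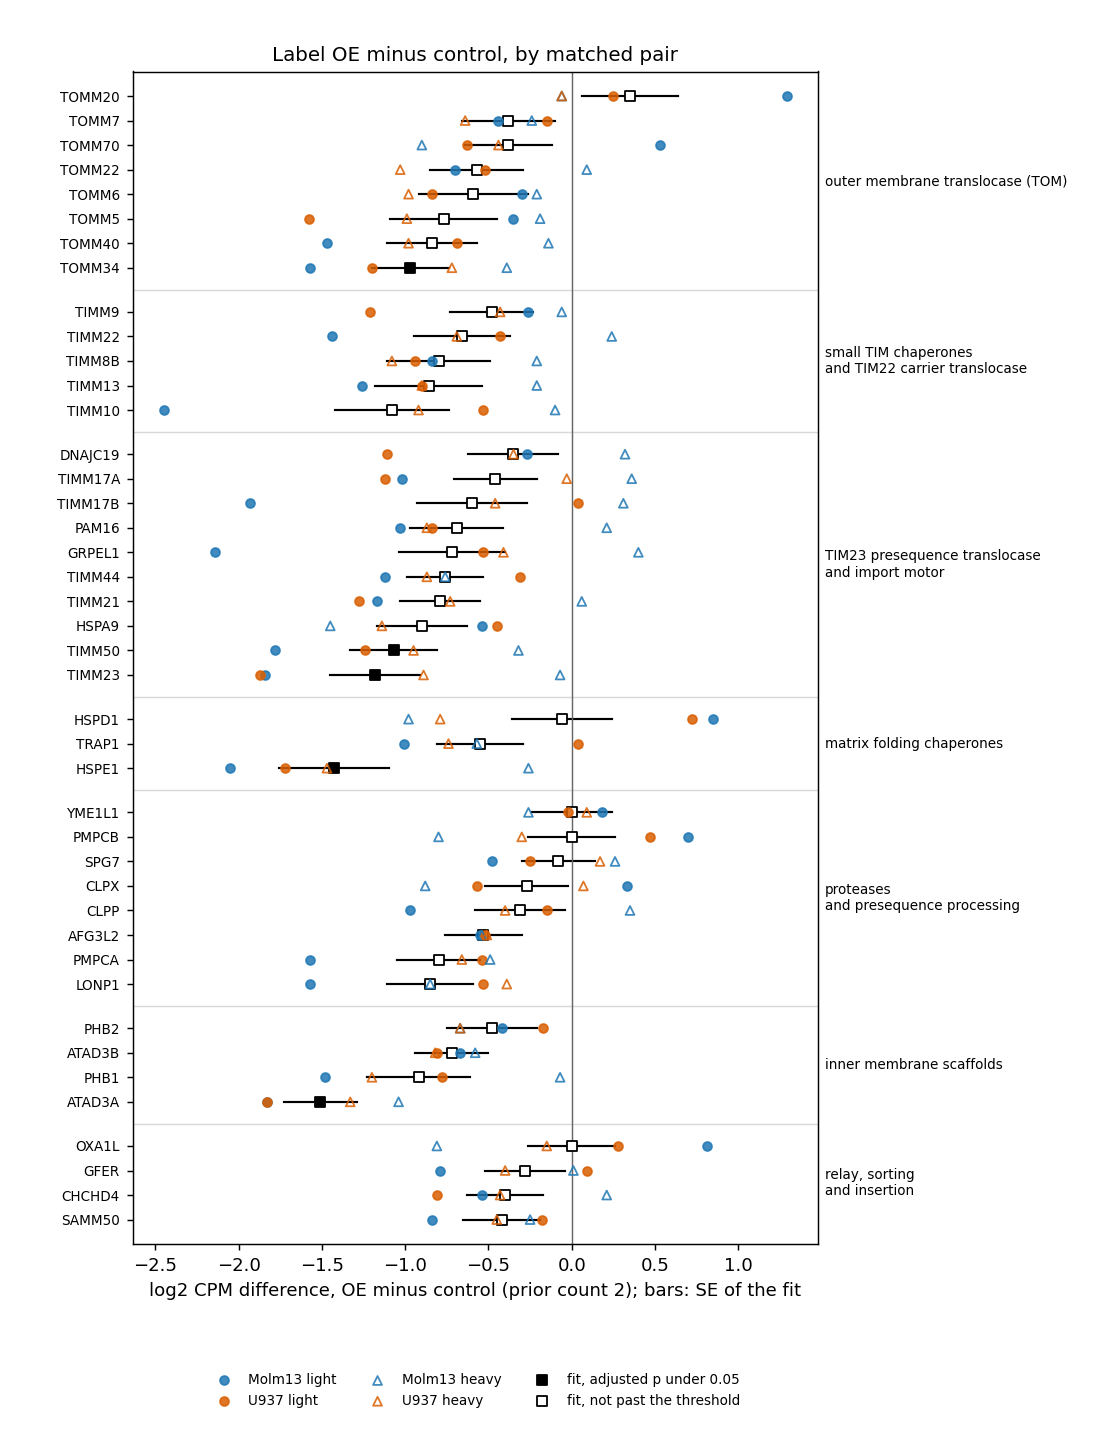
OE minus control difference of the 42 genes, grouped by role. The horizontal axis is the log2 CPM difference; circles are light pools and triangles heavy pools (blue Molm13, orange U937), and squares with bars are the fitted value over both pools and its SE, filled where the adjusted p was under 0.05. The 5 filled squares are TOMM34, TIMM50, TIMM23, HSPE1 and ATAD3A.

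**Figure D5:**
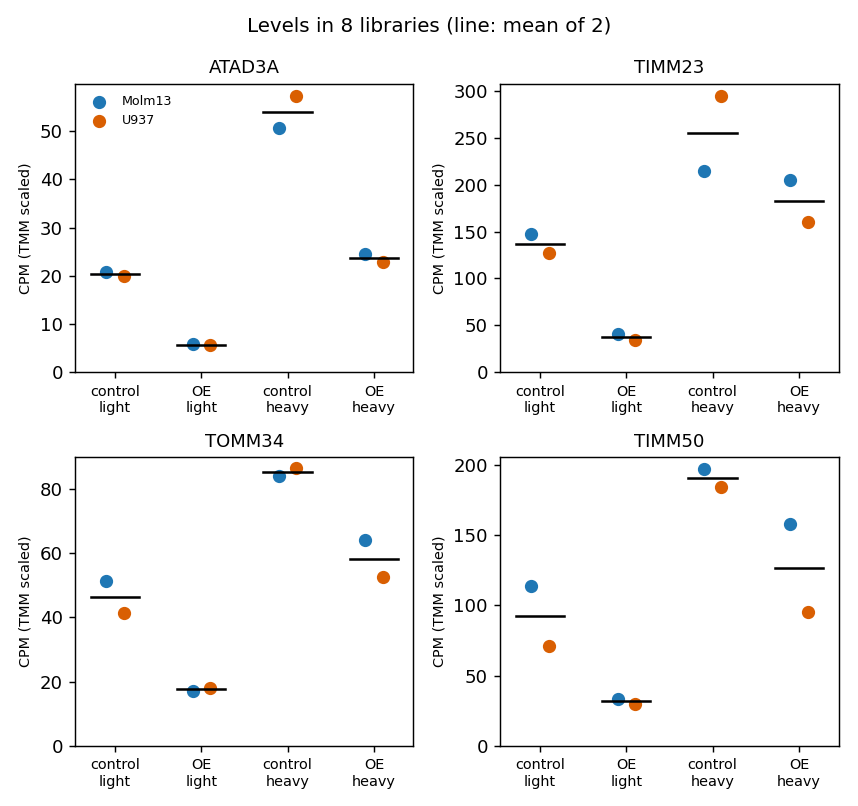
CPM (vertical axes, starting at 0) of ATAD3A, TIMM23, TOMM34 and TIMM50, the other 4 genes lower under the label OE over both pools, in the 4 groups. Points are libraries labelled Molm13 (blue) and U937 (orange), and the lines are means of 2. Each OE light library lies below both control light libraries, as for ATAD3A at 5.8 and 5.58 against 20.7 and 19.9 CPM.

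In the light pools alone no gene of the 42 passed (0% of all genes did), and 18 had an unadjusted p under 0.05, against 14.8% of all genes. DESeq2 called 9 of the 42 (3.83% of all genes) and limma voom 0 (0%). The median was -0.70, with 37 negative values. By matched pair the median was -0.84 for Molm13 and -0.54 for U937, with 35 of the 42 negative in each. Upper-quartile scaling moved the median of all genes in the light pools from -0.05 to 0.11, and 35 values stayed negative. TIMM23 gave -1.86 (SE 0.39, adjusted p = 0.139), HSPE1 -1.91 (SE 0.48, adjusted p = 0.146) and ATAD3A -1.83 (SE 0.32, adjusted p = 0.138). Without the Molm13 control light library the median was -0.56, and ATAD3A gave -1.80, TIMM23 -1.77 and HSPE1 -1.48. Several values moved by more than 1.5 times without it. TIMM10, GRPEL1 and LONP1 went from -1.60, -1.41 and -1.08 to -0.63, -0.63 and -0.59. TIMM17B and TIMM22 went from -1.08 and -1.02 to -0.02 and -0.28. Other values moved away from 0, such as TOMM5 from -0.92 to -1.21. Some of the 42 genes, and some of all genes, passed when either the Molm13 or the U937 control light library was left out. Leaving one out keeps 1 library in its group.

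In the heavy pools alone no gene of the 42 passed, against 0.00412% of all genes, and 4 had an unadjusted p under 0.05, against 15.1%. DESeq2 called 2 of the 42 (4.09% of all genes) and limma voom 0 (0.42%). The median was -0.54, against -0.03 over all genes, with 40 negative values. By matched pair the median was -0.21 for Molm13, with 12 of the 42 positive, and -0.68 for U937, with 3 positive. HSPA9 was at 484 and 373 CPM in the control heavy pools against 177 and 169 in the OE heavy pools (-1.31, SE 0.39, adjusted p = 0.14). Its light pools were closer, at 225 and 235 against 154 and 172. ATAD3A gave -1.19 (SE 0.31, adjusted p = 0.107), TIMM44 -0.82, ATAD3B -0.70 and HSPD1 -0.90. HSPA9 and ATAD3A passed without either the Molm13 or the U937 control light library. Those settings called 6.99% and 7% of all genes, a larger share than 2 of 42.

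The difference between these contrasts, heavy minus light, was tested by the interaction of label and pool. It called 0 of the 42 genes and 0% of all genes, and 4 of the 42 had an unadjusted p under 0.05, against 5.89% of all genes. DESeq2 and limma voom also called 0 of the 42. HSPD1 gave -1.67 (SE 0.60) and PMPCB -1.15 (SE 0.52), while TIMM23 gave 1.36 (SE 0.53), TIMM17A 1.22 (SE 0.50) and GRPEL1 1.37 (SE 0.64), all with an adjusted p of 0.791. GRPEL1 gave 0.64, TIMM23 1.28 and TIMM17A 1.13 without the Molm13 control light library. The median was 0.45, against 0.08 over all genes, and 0.03 without the Molm13 control light library. The 6 genes with a pyrimidine start printed above were all negative, with a median of -0.71, and 24 of the other 30 matched genes were positive, with a median of 0.51. Over all genes the medians were -0.15 for such starts (365 of 850 positive) and 0.15 for the others. Without the Molm13 control light library the 6 and the 30 genes had medians of -0.47 and 0.12. The medians over all genes were then -0.17 and 0.08. Among the 42 genes, calls appeared only when the U937 control light library was left out, which keeps 1 library in its group. In that setting calls appeared among all genes as well, where the main fit had 0%.

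Ratios between paired subunits differed between pools and labels. The ratio of PMPCA to PMPCB per length was 0.713 and 0.305 in the control light pools, 0.147 and 0.151 in the OE light pools, and 0.663 to 1.16 in the heavy pools. For PHB1 to PHB2 it was 1.2 and 0.471 in the control light pools, 0.571 and 0.31 in the OE light pools, and 1.04 to 2 in the heavy pools. ATAD3A to ATAD3B stood at 1.42 and 1.1 in the control light and 0.633 and 0.544 in the OE light pools, and at 1.34 to 2.4 in the heavy pools. TIMM10 to TIMM9 stood at 9.96 and 1.88 in the control light pools, and at 2.19 and 3 in the OE light pools. TIMM17B to TIMM17A was 2.13 and 0.569 in the control light and 1.13 and 1.28 in the OE light pools, and CLPP to CLPX was 25.3 and 9.08 against 10.2 and 12.1. In the light pools the last 3 pairs had lower ratios under the label OE for Molm13 and higher ones for U937, and the others had lower ratios for both line labels.

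Between the line labels 0 of the 42 genes differed at an adjusted p under 0.05, as did 0% of all genes. At an unadjusted p under 0.05 there were 0 of the 42, against 11.8% of all genes. DESeq2 and limma voom called 0 of the 42. Values ranged from -0.52 to 0.67.

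The order of levels per length of transcript depended on the pool. Means of the 4 light libraries were highest for TOMM6 (989 CPM per kb, with its shared exon bases), TOMM5 (777), TOMM7 (457) and TIMM8B (415). Means of the 4 heavy libraries were highest for HSPE1 (822), TOMM6 (794), TIMM10 (364) and TOMM5 (247). SPG7 and ATAD3B were among the lowest in both, at 4.96 and 4.98 in the light and 8.14 and 7.89 in the heavy pools. TIMM23B, the near copy of TIMM23, stayed between 0.749 and 2.01 CPM.

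Other genes of the pathway, from lists chosen by function, were read on the same scale. For the counts below, 15.8% of all genes tested were higher and 12.8% lower in the heavy pools. Under the label OE over both pools 2.36% of all genes were lower. Of 39 further import and quality control genes, 15 were higher and 3 lower in the heavy pools (median 0.37), among them MTX1, a partner of SAMM50 (2.19, SE 0.39), TIMM29, a TIM22 subunit (1.60, SE 0.30), IMMP2L, an inner membrane peptidase (1.51, SE 0.29), and APOO, a cristae protein (1.32, SE 0.23). Under the label OE over both pools APOO (-1.24, adjusted p = 0.0169) and MIPEP, a presequence peptidase (-1.17, adjusted p = 0.0322), were lower. Among 13 tested stress and biogenesis regulators, TFAM, which packages mitochondrial DNA, was higher in the heavy pools (1.25, SE 0.23), as was PPRC1, a coactivator (0.94, SE 0.23). ATF4, the stress factor controlled by upstream reading frames, was lower there (-1.61, SE 0.30). PPRC1 was the one regulator called under the label OE (-1.29, adjusted p = 0.0149). Of 14 cytosolic factors, most of them chaperones of precursors, 8 were higher in the heavy pools. HSP90AA1 (-1.41), STIP1 (-0.98) and MSTO1 (-0.93) were lower under the label OE. HSP90AA1 and STIP1 hand precursors to TOMM70, and MSTO1 acts in mitochondrial fusion. Mitochondrial ribosomal proteins had a median of 1.10 in the pool comparison, with 51 of 78 higher, and nuclear oxidative phosphorylation subunits also 1.10, with 43 of 75 higher. Over both pools 2 and 1 of these were lower under the label OE, with medians of -0.66 and -0.68.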

How the data were processed

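The authors deposited raw counts, whole numbers of reads per Ensembl gene, for 8 libraries. The submitters' processing notes name cutadapt, STAR, featureCounts and GRCh38. Tool versions, the annotation release and whether strand was used are not given in the sources used. A Smart-seq kit was used, per the labels' protocols. Gene positions, overlaps and lengths came from GENCODE release 29. Here edgeR 4.0.16 (R 4.3.3) fitted group plus line label to all 8 libraries by its quasi-likelihood test, with TMM scaling, filterByExpr and 3 residual degrees of freedom. P-values were Benjamini-Hochberg adjusted over 24289 genes, with a threshold of 0.05. The biological coefficient of variation was 0.359. SEs derive from the F statistic. Log2 CPM used a prior count of 2. Alternatives were DESeq2 1.42.0, limma 3.58.1 voom, other scalings, no filter, other blocks and leaving out each library. Scripts were tested on simulated data.

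The 42 genes and all lists were chosen with earlier results of these data known. Named genes were up to 8 called genes of smallest p per comparison (the 5 of smallest p where fewer than 5 were called), 12 followed throughout, and up to 4 called genes per list. Other genes were added to describe each role. A line label holds 1 gradient per genotype label, so n = 2 per group, and p-values reflect only how these libraries vary, which may be technical; separate cultures within a line are not described. The line label pairs libraries by design. Deviations of same-label libraries from group means correlated at 0.0169 to 0.338 between groups.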

Additional observations from a re-analysis of the deposited data

Results flagged for a closer look

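For 5 genes the OE minus control difference had one sign in both light pools and the other sign in both heavy pools. Mean heavy minus light differences of that contrast were -1.67 for HSPD1, -1.14 for PMPCB, -1.02 for OXA1L, -0.83 for TOMM20 and 0.58 for SPG7 (log2 CPM). Without the Molm13 control light library the fitted interaction was -1.44, -0.94, -0.65, -0.47 and 0.43 in the same order. Some signs rest on small differences, such as -0.06 for TOMM20 in both heavy pools and -0.15 for OXA1L in U937 heavy. The interaction test gave these genes adjusted p of 0.791 to 0.818 (edgeR), so none passed. HSPD1 is also flagged the other way round: heavy was above light in both control gradients and below it in both OE gradients, a difference of 1.67. In the control gradients heavy minus light was 0.90 for Molm13 and 0.12 for U937.

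Line labels differed in sign for PAM16 and TOMM6. Heavy minus light was negative in both Molm13 gradients and positive in both U937 gradients, with differences between the labels of -0.96 and -0.86. These differences between line labels were not tested. PAM16 shares 21.9% of its exon bases with the read-through gene CORO7-PAM16, and TOMM6 shares 100% with other genes.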

How the results depend on the processing

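Over the 88 results for single genes and their alternatives, 1201 of 1290 values kept their side of the threshold. Another 31 lost a call, 58 gained one and 0 calls reversed. Values that missed the threshold could change sign, as for LONP1 in the interaction (0.48, and -0.04 without the Molm13 control light library). For heavy against light pools the median was 0.39 with upper-quartile scaling. Called genes under OE against control over both pools numbered 5 in the reported fit, where 2.01% of all genes were higher and 2.36% lower. They numbered 8 with no filter (5.15% of all genes called) and 16 with DESeq2 (10.9%). There was 1 without the replicate block, which is the line label (0.478%), and 0 with gradients summed (0%). When voom took the gradient as random there were 15 (13.3%). The larger counts thus came with larger shares of all genes. Leaving out 1 library gave 0 to 19 there, 0 to 2 in the heavy pools, 0 to 16 in the light pools and 0 to 4 for the interaction. In the heavy pools 1 gene was called with no filter (2.33% of all genes) and 2 with DESeq2 (4.09%). In the light pools 6 were called with no filter (1.26%) and 9 with DESeq2 (3.83%). Where a library is left out, its group keeps 1 library, assumed to vary like the others, with 2 residual degrees of freedom. The causes were not tested. With n = 2 per group, a gene that missed the threshold is not shown to be equal.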
